A study of Mus musculus with 18 samples.

Results

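Interferon response genes were followed in whole mammary glands of mice with and without the kinase domain of Ron, the receptor tyrosine kinase encoded by Mst1r. The list held 38 genes chosen by their known induction by interferon, with no threshold on measured values, and with earlier results of these data known. Each was measured by the probe sets annotated to its symbol alone, and its value was the mean log2 ratio of those probe sets. By this rule 36 genes were measured by 60 probe sets, out of 18193 genes on the array. They were divided into 28 genes linked to type I interferon (of 30 listed) and 8 linked to interferon gamma (of 8 listed). Isg15 and Ifi44 were not analysed here.

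The glands came from virgin female mice that were RonTK-/-, with the tyrosine kinase domain of Ron deleted, or RonTK+/+ controls, at 5, 6 or 7 weeks of age. No group received a treatment. Each of the 6 groups of genotype and age held 3 arrays, 18 in all. The labels do not say whether the 3 arrays of a group came from separate animals, so the p-values measure the spread between these samples, which may be technical. The labels name no promoter or Cre for the deletion. The RNA is that of the whole gland, so epithelium, fat, vessels, immune cells and any lymph node in it are read together.

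Type I interferons (alpha and beta) are made by many cells on sensing viral or misplaced nucleic acid, and signal through a receptor that activates a transcription factor complex that holds Stat2 and Irf9. That complex binds the interferon-stimulated response element (ISRE) and switches on antiviral genes such as the Ifit, Oas and Mx families. Interferon gamma comes chiefly from T and NK cells and acts on the gamma-activated site (GAS), and guanylate-binding proteins, antigen-processing genes and the chemokines Cxcl9 and Cxcl10 are among its best-known targets. Most genes of either kind answer to both interferons to some degree, so the split is one of emphasis.

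The element that the type I complex binds is visible upstream of several members. Promoter windows of 300 bases, 250 before and 50 after the start of transcription, were taken from RefSeq (GRCm38.p6), in which 27 of the 36 measured genes had an entry, 19 type I-linked and 8 gamma-linked. Both strands were searched for the ISRE core (GAAA, any 2 bases, GAAA) and for the GAS core (TTC, any 3 bases, GAA). Each of the 8 stretches below has 1 match in capitals, from genes whose values are described further on. All are written 5′ to 3′ on the strand of the gene.
Ifit1, ISRE core, chr19:34640790-34640827, + strand: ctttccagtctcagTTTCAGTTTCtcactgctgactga
Ifit3, ISRE core, chr19:34583393-34583430, + strand: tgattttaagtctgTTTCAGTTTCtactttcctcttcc
Stat2, ISRE core, chr10:128270262-128270299, + strand: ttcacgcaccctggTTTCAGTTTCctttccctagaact
Bst2, ISRE core, chr8:71537573-71537610, - strand: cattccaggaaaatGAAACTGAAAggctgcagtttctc
Gbp2, ISRE core, chr3:142620590-142620627, + strand: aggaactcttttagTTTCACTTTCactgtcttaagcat
Cxcl10, ISRE core, chr5:92349079-92349116, - strand: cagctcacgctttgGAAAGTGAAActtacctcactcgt
Irf1, GAS core, chr11:53769910-53769946, + strand: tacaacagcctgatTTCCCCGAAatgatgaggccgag
Psmb8, GAS core, chr17:34198084-34198120, + strand: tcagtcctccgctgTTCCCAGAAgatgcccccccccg

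The match began 85 bases before the start in Ifit1, 122 in Ifit3, 222 in Stat2, 124 in Bst2, 59 in Gbp2 and 213 in Cxcl10. The GAS match began 90 bases before the start in Irf1 and 97 in Psmb8. Ifit1, Ifit3 and Stat2 shared the same 10 letters, and Bst2 held their reverse complement. The ISRE core was present in the windows of 9 of 19 type I-linked genes (47.4%) and 3 of 8 gamma-linked genes (37.5%), against 1079 of 27025 genes with a promoter entry (3.99%). The GAS core was present in 4 of 19 (21.1%) and 2 of 8 (25%), against 2582 of 27025 (9.55%). Bst2 and Eif2ak2 held both cores, without overlap. In Bst2 the GAS match began 136 bases before the start, so it lies in the stretch shown, in lower case just ahead of the capitals. The windows of Irf7, Irf9, Oasl1, Oasl2, Xaf1, Cmpk2, Herc6, Lgals3bp, Cxcl9, Tap1 and Psmb9 held neither, which says only that these letters are not in those 300 bases. A match describes the sequence and is no evidence of binding in these glands.

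The deposited values are linear ratios, and a log2 ratio of 0 stands for the median of the RonTK+/+ arrays in 51 of the 60 probe sets of these genes. Levels cannot be recovered from such ratios, so no gene's level was set against another's, and the presence of mammary markers could be judged only relative to other arrays. The means of 10 luminal and 8 basal epithelial markers ran from -0.80 to 0.55 and from -0.54 to 0.65 over the arrays. The targeted gene, Mst1r, had a single probe set, and no source used here says whether it lies in the deletion. Its values at 5 weeks were -0.04, -0.22 and 0.08 in RonTK+/+ and -0.20, -0.43 and 0.22 in RonTK-/- arrays. They were 0.22, 0.00 and 0.17 in RonTK+/+ and 0.65, 0.49 and 0.40 in RonTK-/- arrays at 6 weeks. At 7 weeks they were -0.31, -0.22 and 0.49 in RonTK+/+ and 0.29, 1.07 and 0.38 in RonTK-/- arrays. The genotypes overlapped at 5 and 7 weeks and RonTK-/- lay higher at 6 weeks, so this probe set did not check the labels. T lymphocyte markers (10 of 12 measured) divided the arrays into 8 with a mean between -2.77 and -2.51 and 10 with a mean between -0.40 and 0.96. The 8 were array 3 of RonTK+/+ and array 2 of RonTK-/- at 5 weeks, array 1 of RonTK+/+ at 6 weeks, and at 7 weeks arrays 1 and 3 of RonTK+/+ and all 3 of RonTK-/-. B lymphocyte markers (9 of 10 measured) gave the same division, -2.06 to -1.91 against -0.41 to 0.85.

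The type I-linked genes were highest in a single array. RonTK-/- array 3 at 6 weeks had the highest of the 18 values in 26 of the 28, and in 30 of all 36 measured genes, while it was the highest array for 3.31% of all genes. All 28 type I-linked genes lay above 0 there, from 0.40 in Oas3 to 2.24 in Ifit1, a ratio of 4.73 to the RonTK+/+ median. Their mean in that array was 0.97, and the next highest array, RonTK+/+ array 1 at 5 weeks, had 0.41. The median distance from that array to the next highest was 0.37 over the 26 genes, with a range of 0.05 to 1.30. The exceptions were Rsad2, which was highest in RonTK+/+ array 1 at 5 weeks (0.62), and Lgals3bp, which was highest in RonTK+/+ array 3 at 5 weeks (0.66).

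The other RonTK-/- arrays at 6 weeks did not share that level. The type I-linked mean was -0.19 in RonTK-/- array 1 and 0.17 in array 2, and the group came to 0.31 ± 0.59 (SD, n = 3), the widest spread of the 6 groups. At 5 weeks the RonTK+/+ arrays had means of 0.41, 0.20 and 0.27 and the RonTK-/- arrays -0.31, -0.05 and -0.08, with no overlap. The RonTK+/+ arrays at 6 weeks had -0.39, 0.00 and -0.04. At 7 weeks the means were -0.36, 0.07 and -0.24 in RonTK+/+ and -0.34, -0.16 and -0.31 in RonTK-/- arrays, which overlapped. RonTK+/+ array 1 at 5 weeks was the only other array with all 28 genes above 0. The lowest of the 18 values fell in RonTK+/+ array 1 at 6 weeks for 7 type I-linked genes (8.02% of all genes). It fell in array 1 of the same genotype at 7 weeks for 5 (7.23%), and in RonTK-/- array 1 at 6 weeks for 4 (6.24%).

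**Figure D1:**
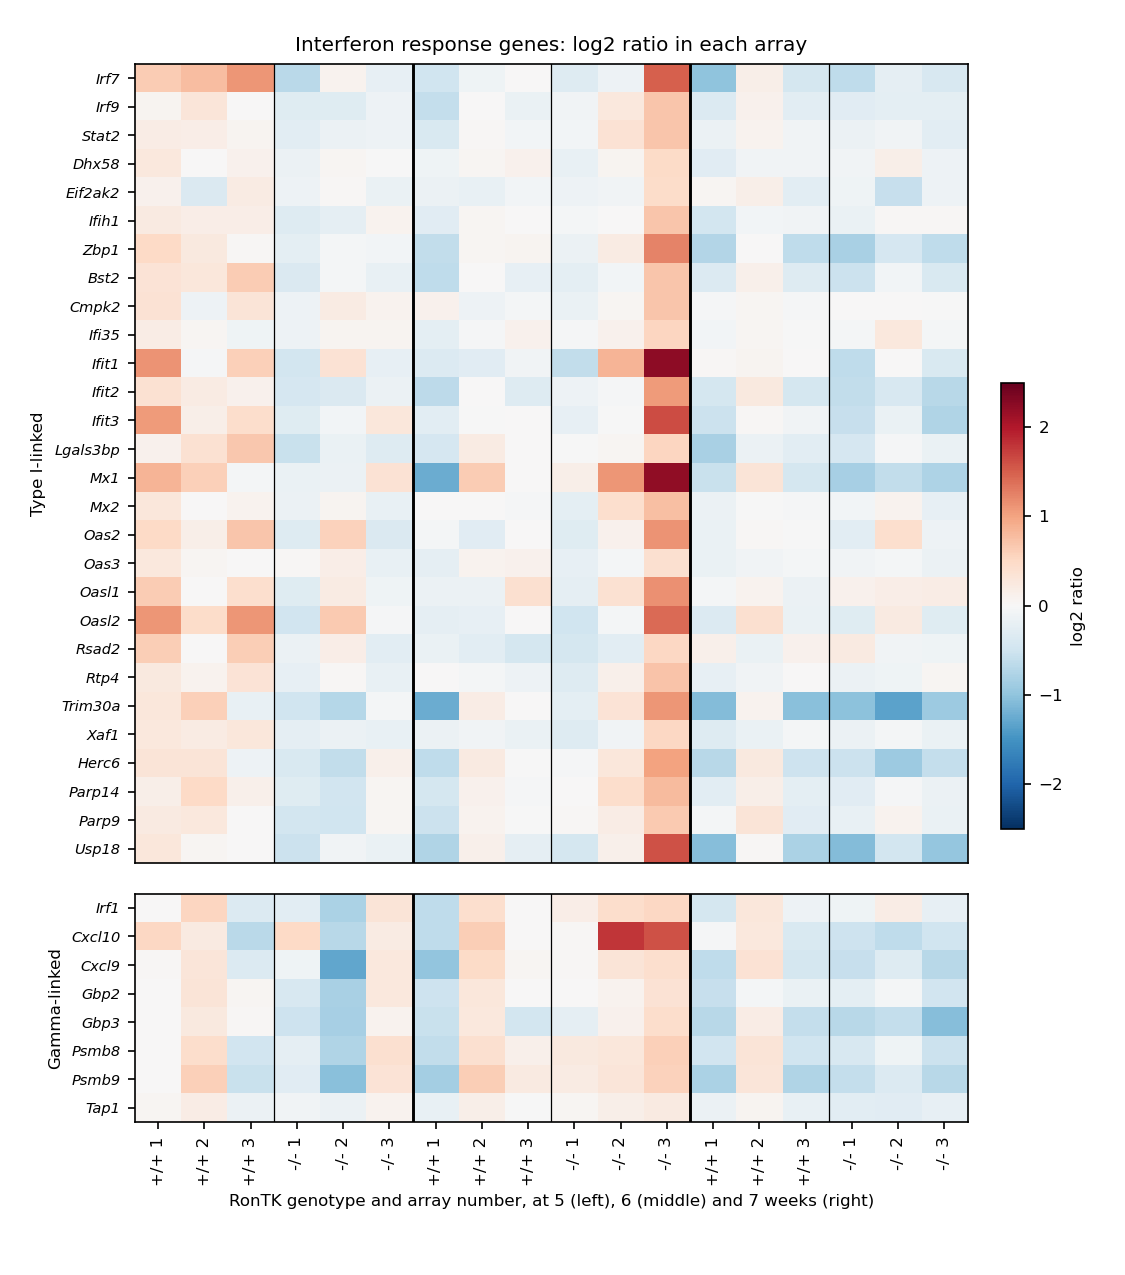
Heat map of the log2 ratio of the 28 type I-linked (top) and 8 gamma-linked genes (bottom) in each of the 18 arrays, ordered by age, genotype and array number, with red above and blue below a ratio of 1. RonTK-/- array 3 at 6 weeks is above 0 for every gene shown and the 3 RonTK+/+ arrays at 5 weeks are above 0 for most type I-linked genes.

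The gamma-linked genes were ordered differently over the arrays. Their mean was also highest in RonTK-/- array 3 at 6 weeks (0.59), where 4 of the 8 had their highest value, but array 2 of RonTK-/- (0.44) and of RonTK+/+ (0.40) at the same age and of RonTK+/+ at 5 weeks (0.36) were close behind. Among those 4 genes the median distance to the next highest array was 0.10, with a range of 0.05 to 0.18. The lowest mean, -0.80, was that of RonTK-/- array 2 at 5 weeks, which held the lowest value of 6 of the 8 genes and of 7.22% of all genes. In that array the type I-linked mean was -0.05, so the means of both classes lay 0.75 apart, more than in any other array.

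The gamma-linked values moved with markers of lymphocytes and of some other immune cells. In the 8 arrays low in T and B lymphocyte markers the gamma-linked mean ran from -0.80 to -0.27, and in the other 10 from -0.17 to 0.59, with no overlap. The type I-linked mean overlapped between these arrays, -0.39 to 0.27 against -0.31 to 0.97. Of single genes, Cxcl9, Cxcl10, Tap1 and Psmb9 did not overlap, 4 of 8 gamma-linked against 0 of 28 type I-linked and 4.32% of all genes. The mean of the 10 arrays minus that of the 8 had a median of 0.69 over the gamma-linked genes, all 8 of them above 0, and ran from 0.28 in Tap1 to 1.08 in Cxcl10. Over the type I-linked genes its median was 0.24, with 25 of 28 above 0, and it ran from -0.19 in Rsad2 to 1.19 in Mx1. Over all genes the median was -0.02. Other marker means divided the same arrays without overlap. They were -0.95 to -0.37 in the 8 against 0.01 to 0.73 for NK cells, and -0.82 to -0.58 against -0.14 to 0.64 for conventional dendritic cells. For plasmacytoid dendritic cells they were -0.67 to -0.51 against -0.43 to 0.09. Skeletal muscle marker means ran from 0.08 to 0.54 in the 8 and from -5.99 to 0.44 in the 10. Among the 10, only array 1 of RonTK+/+ (0.01) and array 1 of RonTK-/- (0.44) at 5 weeks lay above -3.71. The division was thus nearly one by muscle markers as well, and the part of muscle in the gamma-linked values was not tested. In whole-gland RNA fewer cells of a type and less RNA per cell cannot be told apart. The division was chosen after the data were seen and its part in the genotype differences was not tested, apart from the fits with T lymphocyte markers given below.

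**Figure D2:**
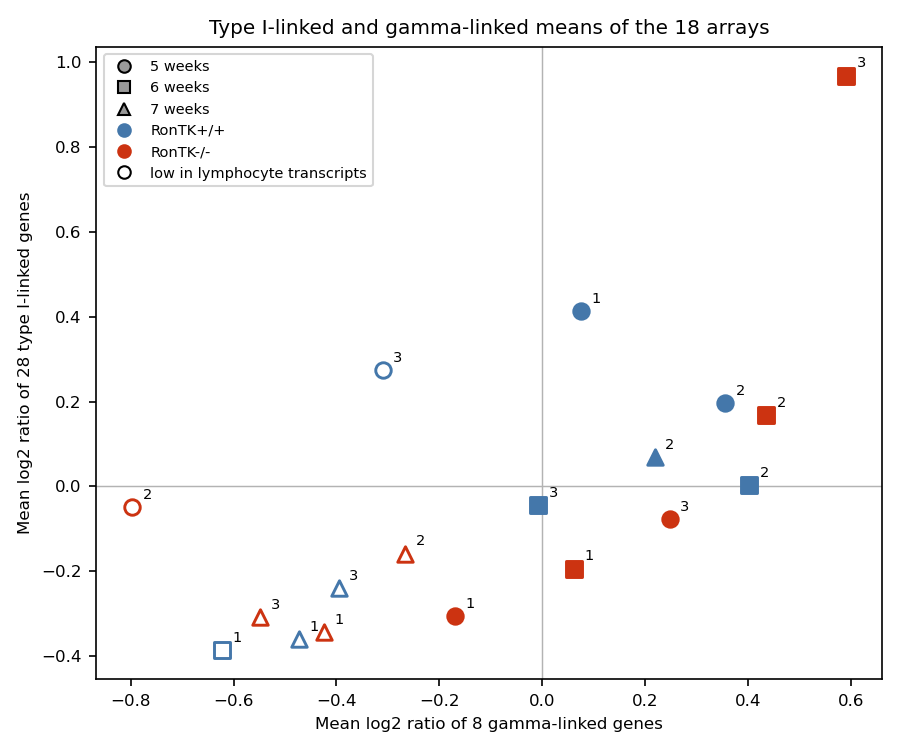
Mean log2 ratio of the 28 type I-linked genes (y axis) against that of the 8 gamma-linked genes (x axis), 1 point per array. RonTK-/- array 3 at 6 weeks stands alone at the top (0.97), and the 8 arrays low in lymphocyte markers lie to the left, at a gamma-linked mean of -0.27 or lower.

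Markers of other immune cells in RonTK-/- array 3 at 6 weeks were within the range of the other arrays. The mean of 11 macrophage markers there was 0.25, against 0.62 in RonTK+/+ array 3 at 5 weeks. T, B and NK cell marker means were 0.62, 0.36 and 0.49, each below that of RonTK+/+ array 2 at 6 weeks. Most of these means were near the top, as the array ranked 4, 4 and 2 of the 18 for them and 3 for macrophage markers. For neutrophil markers it ranked 13. Conventional dendritic cell markers (7 of 8 measured) had a mean of 0.36, with 2 arrays above it, and plasmacytoid dendritic cell markers (9 of 10) one of -0.14. The plasmacytoid markers did not move together. Their genotype differences had a median of 0.41 but a lowest value of -1.62 at 6 weeks, and a median of -0.12 but a highest value of 1.61 at 7 weeks. Skeletal muscle markers had medians of -2.13 and 2.03 in these comparisons. The plasmacytoid mean can therefore hide opposite values of single genes. Skeletal muscle markers averaged -5.66 in RonTK-/- array 3 at 6 weeks, and lay between -5.99 and -3.71 in 8 of the 18 arrays. As these are ratios, no marker can be called absent. The part of these cells in the values of that array was not tested.

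Among the transcription factors, Irf7, the factor that amplifies type I interferon production, was among the 4 members with the widest range over the arrays. At 5 weeks Irf7 had log2 ratios of 0.63, 0.78 and 1.11 in RonTK+/+ and -0.67, 0.09 and -0.20 in RonTK-/- arrays (arrays 1, 2 and 3 in order, here and below). At 6 weeks Irf7 had -0.50, -0.10 and 0.00 in RonTK+/+ and -0.32, -0.12 and 1.50 in RonTK-/- arrays. At 7 weeks Irf7 had -1.01, 0.14 and -0.45 in RonTK+/+ and -0.64, -0.23 and -0.40 in RonTK-/- arrays. The genotypes did not overlap at 5 weeks, and RonTK-/- array 3 stood alone at 6 weeks. For Irf7 the difference at 5 weeks (RonTK-/- minus RonTK+/+, log2) was -1.09 ± 0.40 (SE), with a limma p of 0.0158 and an adjusted p of 0.999. The difference was 0.56 ± 0.40 (SE) at 6 weeks and 0.02 ± 0.40 (SE) at 7 weeks.

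Stat2 and Irf9, partners in the complex that binds the ISRE, varied less. At 5 weeks Stat2 had 0.19, 0.17 and 0.07 in RonTK+/+ and -0.27, -0.16 and -0.12 in RonTK-/- arrays. At 6 weeks Stat2 had -0.39, 0.02 and -0.08 in RonTK+/+ and -0.08, 0.35 and 0.70 in RonTK-/- arrays. At 7 weeks Stat2 had -0.15, 0.10 and -0.09 in RonTK+/+ and -0.15, -0.08 and -0.27 in RonTK-/- arrays. RonTK-/- arrays lay below RonTK+/+ at 5 weeks without overlap, and arrays 2 and 3 of RonTK-/- lay above all others at 6 weeks. For Stat2 the difference at 6 weeks was 0.47 ± 0.15 (SE), the smallest limma p among the type I-linked genes at that age (0.00801), with an adjusted p of 0.774. Without RonTK-/- array 3 at 6 weeks it was 0.29 ± 0.13 (SE), with an adjusted p of 0.916 in limma.

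Irf9 followed nearly the same order. At 5 weeks Irf9 had 0.06, 0.31 and 0.01 in RonTK+/+ and -0.29, -0.30 and -0.12 in RonTK-/- arrays. At 6 weeks Irf9 had -0.60, 0.01 and -0.17 in RonTK+/+ and -0.09, 0.27 and 0.69 in RonTK-/- arrays. At 7 weeks Irf9 had -0.34, 0.11 and -0.26 in RonTK+/+ and -0.28, -0.24 and -0.24 in RonTK-/- arrays. As for Stat2, the genotypes did not overlap at 5 weeks and overlapped at 6 and 7 weeks. For Irf9 the difference was -0.36 ± 0.18 (SE) at 5 weeks and 0.55 ± 0.18 (SE) at 6 weeks, with adjusted p of 0.999 and 0.774 in limma. Irf1, the gamma-linked factor of the 4 and the gene with the GAS core shown above, had a difference of -0.31 ± 0.31 (SE) at 5 weeks and 0.44 ± 0.31 (SE) at 6 weeks.

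Sensors of nucleic acid numbered 4: Ifih1 (MDA5) and Dhx58 (LGP2), which bind double-stranded RNA in the cytosol, Zbp1, which binds Z-form nucleic acid, and Eif2ak2 (PKR), a kinase that stops translation on binding double-stranded RNA. All 4 were highest in RonTK-/- array 3 at 6 weeks, at 0.69, 0.48, 1.24 and 0.45. Eif2ak2 had the smallest p of the type I-linked genes at 7 weeks. At 5 weeks Eif2ak2 had 0.11, -0.37 and 0.21 in RonTK+/+ and -0.12, 0.03 and -0.17 in RonTK-/- arrays. At 6 weeks Eif2ak2 had -0.15, -0.18 and -0.07 in RonTK+/+ and -0.13, -0.08 and 0.45 in RonTK-/- arrays. At 7 weeks Eif2ak2 had 0.05, 0.15 and -0.25 in RonTK+/+ and -0.10, -0.58 and -0.12 in RonTK-/- arrays. The lowest value was that of RonTK-/- array 2 at 7 weeks, and the genotypes overlapped at 5, 6 and 7 weeks. For Eif2ak2 the difference at 7 weeks was -0.25 ± 0.18 (SE), with an adjusted p of 0.696 in limma. Ifih1 and Zbp1 did not overlap at 5 weeks, with differences of -0.33 ± 0.17 (SE) and -0.38 ± 0.30 (SE).

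Antiviral effectors made up 17 of the 36 measured genes. Ifit1, which binds viral RNA lacking the host's cap modification, had the highest value of any member. At 5 weeks Ifit1 had 1.12, -0.04 and 0.60 in RonTK+/+ and -0.46, 0.36 and -0.21 in RonTK-/- arrays. At 6 weeks Ifit1 had -0.34, -0.27 and -0.09 in RonTK+/+ and -0.61, 0.84 and 2.24 in RonTK-/- arrays. At 7 weeks Ifit1 had 0.04, 0.08 and 0.00 in RonTK+/+ and -0.63, 0.02 and -0.39 in RonTK-/- arrays. At 6 weeks the RonTK-/- arrays held both the highest and, at -0.61, nearly the lowest of the 18 values. For Ifit1 the difference was -0.67 ± 0.51 (SE) at 5 weeks, 1.06 ± 0.51 (SE) at 6 weeks and -0.37 ± 0.51 (SE) at 7 weeks, with an adjusted p of 0.804 in limma at 6 weeks.

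Mx1, a dynamin-like GTPase that blocks influenza and related viruses, had the widest range, 3.46. At 5 weeks Mx1 had 0.85, 0.59 and -0.05 in RonTK+/+ and -0.17, -0.14 and 0.37 in RonTK-/- arrays. At 6 weeks Mx1 had -1.24, 0.63 and 0.00 in RonTK+/+ and 0.15, 1.10 and 2.22 in RonTK-/- arrays. At 7 weeks Mx1 had -0.57, 0.33 and -0.45 in RonTK+/+ and -0.83, -0.61 and -0.78 in RonTK-/- arrays. RonTK-/- lay below RonTK+/+ at 7 weeks without overlap, where all 3 RonTK-/- arrays and 2 of the 3 RonTK+/+ arrays were low in lymphocyte markers. For Mx1 the difference at 6 weeks was 1.36 ± 0.49 (SE), with a limma p of 0.0156 and an adjusted p of 0.774. Without RonTK-/- array 3 it was 0.83 ± 0.47 (SE), and the adjusted p 0.941 in limma. The 7-week value was -0.51 ± 0.49 (SE), with an adjusted p of 0.772 in limma.

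Ifit2, a relative of Ifit1, was among the genes with the smallest p at 7 weeks. At 5 weeks Ifit2 had 0.39, 0.21 and 0.10 in RonTK+/+ and -0.42, -0.37 and -0.15 in RonTK-/- arrays. At 6 weeks Ifit2 had -0.65, 0.00 and -0.32 in RonTK+/+ and -0.13, -0.04 and 1.07 in RonTK-/- arrays. At 7 weeks Ifit2 had -0.45, 0.24 and -0.43 in RonTK+/+ and -0.62, -0.40 and -0.69 in RonTK-/- arrays. The genotypes did not overlap at 5 weeks, and at 7 weeks RonTK+/+ array 2 stood above the other 5 arrays. For Ifit2 the difference was -0.55 ± 0.27 (SE) at 5 weeks, 0.62 ± 0.27 (SE) at 6 weeks and -0.36 ± 0.27 (SE) at 7 weeks, with adjusted p of 0.999, 0.791 and 0.715 in limma.

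Xaf1, a proapoptotic binding partner of XIAP, had closely spaced arrays within the 5-week groups. At 5 weeks Xaf1 had 0.25, 0.21 and 0.28 in RonTK+/+ and -0.22, -0.15 and -0.19 in RonTK-/- arrays. At 6 weeks Xaf1 had -0.14, -0.08 and -0.16 in RonTK+/+ and -0.31, -0.09 and 0.53 in RonTK-/- arrays. At 7 weeks Xaf1 had -0.32, -0.17 and -0.05 in RonTK+/+ and -0.14, -0.05 and -0.16 in RonTK-/- arrays. Only the 3 RonTK+/+ arrays at 5 weeks and RonTK-/- array 3 at 6 weeks were above 0. For Xaf1 the difference at 5 weeks was -0.44 ± 0.15 (SE), with a limma p of 0.0103 and an adjusted p of 0.999. With RonTK-/- array 3 at 6 weeks left out of the fit, the same difference had an SE of 0.07 and an adjusted p of 0.127 in limma, the lowest of the members there.

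Lgals3bp, a secreted glycoprotein that binds galectins, had the smallest p of the members at 5 weeks. At 5 weeks Lgals3bp had 0.11, 0.38 and 0.66 in RonTK+/+ and -0.55, -0.17 and -0.31 in RonTK-/- arrays. At 6 weeks Lgals3bp had -0.41, 0.20 and 0.00 in RonTK+/+ and -0.01, 0.05 and 0.53 in RonTK-/- arrays. At 7 weeks Lgals3bp had -0.82, -0.15 and -0.26 in RonTK+/+ and -0.41, -0.02 and -0.16 in RonTK-/- arrays. The genotypes lay apart at 5 weeks only. For Lgals3bp the difference at 5 weeks was -0.73 ± 0.21 (SE), with a limma p of 0.00433 and an adjusted p of 0.999. The highest array, RonTK+/+ array 3 at 5 weeks, also had the highest macrophage marker mean (0.62), whose part in this value was not tested.

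Bst2 (tetherin), which holds budding virus at the cell surface, and Ifi35 were named for their values over the 3 ages. At 5 weeks Bst2 had 0.34, 0.28 and 0.63 in RonTK+/+ and -0.36, -0.05 and -0.18 in RonTK-/- arrays. At 6 weeks Bst2 had -0.63, 0.00 and -0.20 in RonTK+/+ and -0.25, -0.07 and 0.68 in RonTK-/- arrays. At 7 weeks Bst2 had -0.34, 0.12 and -0.31 in RonTK+/+ and -0.54, -0.07 and -0.39 in RonTK-/- arrays. Bst2 was again without overlap at 5 weeks, where its difference was -0.62 ± 0.23 (SE), and overlapped at 6 and 7 weeks. At 5 weeks Ifi35 had 0.19, 0.05 and -0.10 in RonTK+/+ and -0.13, 0.08 and 0.07 in RonTK-/- arrays. At 6 weeks Ifi35 had -0.24, -0.03 and 0.10 in RonTK+/+ and -0.02, 0.11 and 0.53 in RonTK-/- arrays. At 7 weeks Ifi35 had -0.08, 0.05 and -0.02 in RonTK+/+ and -0.04, 0.27 and -0.04 in RonTK-/- arrays. Ifi35 overlapped at every age and had no value past 0.28 in size except in RonTK-/- array 3 at 6 weeks. Over the 3 ages the differences were -0.12 ± 0.13 (SE) for Bst2 and 0.10 ± 0.08 (SE) for Ifi35, each with an adjusted p of 1 in limma.

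The remaining effectors were Ifit3, Oasl1, Oasl2, Oas2, Oas3, Mx2, Rsad2, Rtp4, Trim30a and Cmpk2. Oas2 and Oas3 are oligoadenylate synthetases, which activate RNase L, and Rsad2 (viperin) makes a chain-terminating nucleotide. In this group Oasl2 and Ifit3 were high in RonTK+/+ arrays 1 and 3 at 5 weeks, Oasl2 at 1.09 and 1.11 and Ifit3 at 1.07 and 0.44. Both were highest in RonTK-/- array 3 at 6 weeks, at 1.42 and 1.63. Differences at 5 weeks ran from -0.84 ± 0.41 (SE) in Oasl2 to -0.10 ± 0.14 (SE) in Oas3, all 10 below 0. Oasl1 was the only member in which every RonTK-/- array lay above every RonTK+/+ array at 7 weeks, against 6.38% of all genes. Its mean difference was 0.18 ± 0.27 (SE), but RonTK-/- array 1 (0.10) barely passed RonTK+/+ array 2 (0.09).

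Usp18, which removes Isg15 from proteins and restrains the type I receptor, belongs with Herc6, the mouse ligase that attaches Isg15, and with the ADP-ribosyl transferases Parp9 and Parp14. At 5 weeks Usp18 had 0.29, 0.06 and 0.01 in RonTK+/+ and -0.53, -0.08 and -0.17 in RonTK-/- arrays. At 6 weeks Usp18 had -0.74, 0.13 and -0.23 in RonTK+/+ and -0.45, 0.12 and 1.59 in RonTK-/- arrays. At 7 weeks Usp18 had -1.07, 0.04 and -0.79 in RonTK+/+ and -1.08, -0.45 and -0.97 in RonTK-/- arrays. Usp18 ranged over 2.66, with the lowest value in RonTK-/- array 1 at 7 weeks and the highest in array 3 of that genotype at 6 weeks. For Usp18 the difference was -0.38 ± 0.42 (SE) at 5 weeks, 0.70 ± 0.42 (SE) at 6 weeks and -0.22 ± 0.42 (SE) at 7 weeks, with adjusted p of 0.999, 0.831 and 0.888 in limma.

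Herc6 was low in several arrays poor in lymphocyte markers. At 5 weeks Herc6 had 0.33, 0.31 and -0.13 in RonTK+/+ and -0.37, -0.62 and 0.13 in RonTK-/- arrays. At 6 weeks Herc6 had -0.63, 0.22 and -0.01 in RonTK+/+ and -0.04, 0.28 and 1.01 in RonTK-/- arrays. At 7 weeks Herc6 had -0.69, 0.25 and -0.52 in RonTK+/+ and -0.53, -0.92 and -0.60 in RonTK-/- arrays. The genotypes overlapped at each age. For Herc6 the difference at 7 weeks was -0.36 ± 0.31 (SE), with an adjusted p of 0.744 in limma. Parp14 did not overlap at 5 weeks (-0.51 ± 0.20 (SE)), and Parp9 did.

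**Figure D3:**
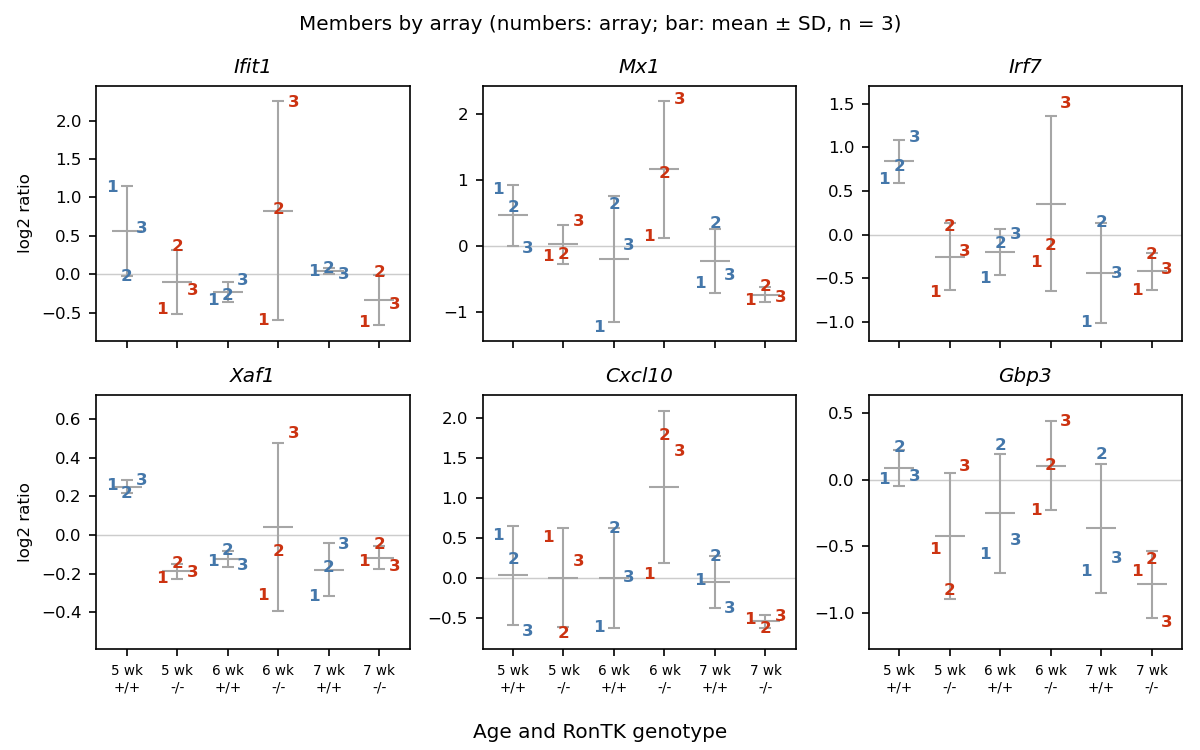
Log2 ratio of 4 type I-linked genes (Ifit1, Mx1, Irf7 and Xaf1) and 2 gamma-linked genes (Cxcl10 and Gbp3) in each array, by age and genotype. Numbers give the array within its group (blue RonTK+/+, red RonTK-/-), grey bars the mean ± SD (n = 3), and array 3 of RonTK-/- at 6 weeks is the highest in every panel but Cxcl10, where array 2 (1.78) is higher than array 3 (1.59).

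The guanylate-binding proteins Gbp2 and Gbp3, GTPases that attack the vacuoles of intracellular pathogens, were gamma-linked. At 5 weeks Gbp3 had 0.00, 0.24 and 0.02 in RonTK+/+ and -0.52, -0.83 and 0.10 in RonTK-/- arrays. At 6 weeks Gbp3 had -0.56, 0.26 and -0.45 in RonTK+/+ and -0.23, 0.11 and 0.43 in RonTK-/- arrays. At 7 weeks Gbp3 had -0.69, 0.19 and -0.59 in RonTK+/+ and -0.69, -0.60 and -1.07 in RonTK-/- arrays. The genotypes overlapped at every age. For Gbp3 the difference was -0.51 ± 0.29 (SE) at 5 weeks, 0.36 ± 0.29 (SE) at 6 weeks and -0.42 ± 0.29 (SE) at 7 weeks, with adjusted p of 0.999, 0.85 and 0.679 in limma. At 5 weeks Gbp2 had 0.01, 0.31 and 0.04 in RonTK+/+ and -0.39, -0.81 and 0.27 in RonTK-/- arrays. At 6 weeks Gbp2 had -0.51, 0.28 and 0.01 in RonTK+/+ and 0.01, 0.09 and 0.36 in RonTK-/- arrays. At 7 weeks Gbp2 had -0.57, -0.06 and -0.17 in RonTK+/+ and -0.25, -0.04 and -0.47 in RonTK-/- arrays. For Gbp2 the difference at 5 weeks was -0.43 ± 0.25 (SE), with an adjusted p of 0.999 in limma. Its lowest value, in RonTK-/- array 2 at 5 weeks, stood in the array with the lowest T lymphocyte marker mean (-2.77). RonTK+/+ array 3 at that age had nearly the same marker mean (-2.76) and Gbp2 at 0.04. The part of these cells in the Gbp2 values was not tested.

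Cxcl9 and Cxcl10 are chemokines that draw T and NK cells through Cxcr3. At 5 weeks Cxcl10 had 0.53, 0.23 and -0.68 in RonTK+/+ and 0.50, -0.70 and 0.20 in RonTK-/- arrays. At 6 weeks Cxcl10 had -0.63, 0.62 and 0.00 in RonTK+/+ and 0.04, 1.78 and 1.59 in RonTK-/- arrays. At 7 weeks Cxcl10 had -0.03, 0.26 and -0.38 in RonTK+/+ and -0.52, -0.63 and -0.49 in RonTK-/- arrays. Arrays 2 and 3 of RonTK-/- at 6 weeks were the highest of the 18, and at 7 weeks every RonTK-/- array was below every RonTK+/+ array. For Cxcl10 the difference at 6 weeks was 1.14 ± 0.46 (SE), with a limma p of 0.0264 and an adjusted p of 0.791. Without RonTK-/- array 3 it was 0.92 ± 0.52 (SE), with an adjusted p of 0.941 in limma. Cxcl9 was highest in RonTK+/+ array 2 at 6 weeks (0.47), and its differences at 5 and 6 weeks were -0.38 ± 0.40 (SE) and 0.42 ± 0.40 (SE).

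Tap1 carries peptides into the endoplasmic reticulum for class I presentation, and Psmb8 and Psmb9 are subunits of the immunoproteasome. At 5 weeks Tap1 had 0.04, 0.18 and -0.14 in RonTK+/+ and -0.08, -0.14 and 0.10 in RonTK-/- arrays. At 6 weeks Tap1 had -0.18, 0.16 and -0.01 in RonTK+/+ and 0.04, 0.15 and 0.23 in RonTK-/- arrays. At 7 weeks Tap1 had -0.15, 0.08 and -0.19 in RonTK+/+ and -0.26, -0.28 and -0.21 in RonTK-/- arrays. All Tap1 values lay between -0.28 and 0.23, the narrowest range of the 36 members, and RonTK-/- lay below RonTK+/+ at 7 weeks without overlap. They are means of 4 probe sets that varied unequally, with genotype differences from -0.01 to 0.50 at 6 weeks. For Tap1 the difference was 0.15 ± 0.10 (SE) at 6 weeks and -0.17 ± 0.10 (SE) at 7 weeks, with adjusted p of 0.847 and 0.637 in limma. Psmb8 and Psmb9 overlapped between genotypes at every age, with differences of 0.40 ± 0.33 (SE) and 0.37 ± 0.42 (SE) at 6 weeks.

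At 5 weeks every measured member was lower on average in RonTK-/- glands, but none passed the test. The median difference was -0.44 over the 28 type I-linked genes, from -1.09 ± 0.40 (SE) in Irf7 to -0.04 ± 0.14 (SE) in Ifi35, and -0.32 over the 8 gamma-linked genes, while 53.2% of all genes lay above 0 and their median was 0.01. Limma called 0 of 36 members at an adjusted p under 0.05, against 2 of 18193 genes (0.011%). Before adjustment 7 type I-linked and 0 gamma-linked genes had a p under 0.05, against 3.42% of all genes. In 12 of the 28 type I-linked genes (Ifit2, Irf7, Irf9, Stat2, Usp18, Ifih1, Bst2, Rtp4, Xaf1, Parp14, Zbp1 and Lgals3bp) and 0 of the 8 gamma-linked genes every RonTK-/- array lay below every RonTK+/+ array, against 3.09% of all genes. No member lay the other way, against 5.12% of all genes. The members share arrays and move together, so these counts are not independent observations. Macrophage markers were lower in the same arrays: 11 of 11 had a difference below 0 at 5 weeks, with a median of -0.51, and 6 had an unadjusted limma p under 0.05 (54.5%), with a smallest adjusted p of 0.855. Their mean lay between -0.01 and 0.62 in RonTK+/+ and between -0.30 and -0.07 in RonTK-/- arrays at 5 weeks, with no overlap. T and B lymphocyte markers had medians of -0.35 and -0.25. The part of these cells in the members' values was not tested beyond the T lymphocyte covariate given next.

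The median 5-week difference of the type I-linked genes stayed below 0 when any 1 array was left out. It ran from -0.44, its value with all arrays, to -0.34 without RonTK-/- array 1 at 5 weeks. Leaving out an array of another age cannot move it. The count at an unadjusted p under 0.05 ran from 2 without RonTK-/- array 1 at 5 weeks to 14 without RonTK-/- array 3 at 6 weeks, which enters through the shared estimate of the spread. The gamma-linked median ran from -0.63 without RonTK-/- array 3 at 5 weeks to 0.00 without RonTK-/- array 2. With the T lymphocyte marker mean as a covariate the medians were -0.40 and -0.22.

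At 6 weeks every measured member was higher on average in RonTK-/- glands, and none passed the test. The median difference was 0.43 over the type I-linked genes, from 0.05 ± 0.14 (SE) in Oas3 to 1.36 ± 0.49 (SE) in Mx1, and 0.39 over the gamma-linked genes, while 47.2% of all genes lay above 0. Limma called 0 of 36 members, against 3 of 18193 genes (0.0165%), and 6 type I-linked and 1 gamma-linked gene had an unadjusted p under 0.05, against 6.15% of all genes. In no member did the arrays of the 2 genotypes lie apart in either direction, against 5.55% of all genes above and 8.77% below. Without RonTK-/- array 3 the type I-linked median was 0.09, with 19 of 28 genes above 0, and 0 members had an unadjusted p under 0.05. The gamma-linked median was then 0.28, with 8 of 8 above 0. With the T lymphocyte marker mean as a covariate the medians were 0.37 for type I-linked and 0.07 for gamma-linked genes. RonTK+/+ array 1 was the 1 array at this age low in lymphocyte markers, and without it the gamma-linked median was 0.09.

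**Figure D4:**
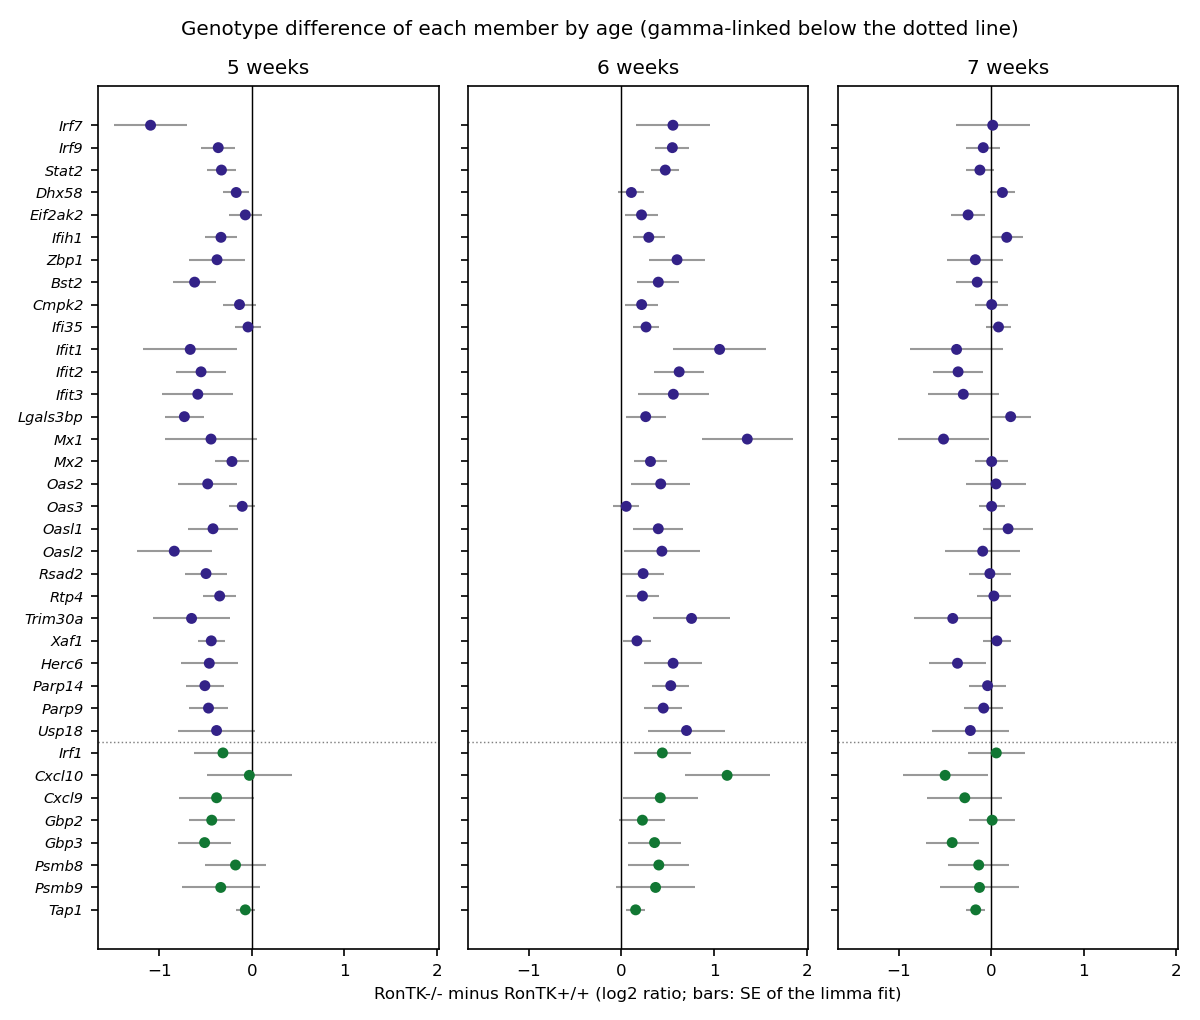
Genotype difference (RonTK-/- minus RonTK+/+, log2) of each of the 36 members at 5, 6 and 7 weeks, with bars of 1 SE from the fit. All points lie below 0 at 5 weeks and above 0 at 6 weeks, and lie on both sides of 0 at 7 weeks.

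At 7 weeks the members lay on both sides of 0. The median was -0.06 for type I-linked genes, with 12 above and 16 below 0, and -0.15 for gamma-linked genes, with 2 above and 6 below. Limma called 0 of 36 members against 6 of 18193 genes (0.033%), and 0 members had an unadjusted p under 0.05, against 9.75% of all genes. Only Mx1, Cxcl10 and Tap1 lay lower in every RonTK-/- array, against 3.35% of all genes. Without RonTK+/+ array 2, the 1 array at this age that was not low in lymphocyte markers, the gamma-linked median was 0.07.

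Averaged over the 3 ages, the genotypes differed little in these genes. The median difference was -0.01 over the type I-linked genes, from -0.17 ± 0.23 (SE) in Irf7 to 0.13 ± 0.29 (SE) in Mx1, and -0.03 over the gamma-linked genes, from -0.19 ± 0.17 (SE) in Gbp3 to 0.21 ± 0.27 (SE) in Cxcl10. Limma called 0 of 36 members against 11 of 18193 genes (0.0605%), and 0 had an unadjusted p under 0.05, against 3.77% of all genes. Without RonTK-/- array 3 at 6 weeks the type I-linked median was -0.12, with 27 of 28 genes below 0, and 0 members were called. This average uses the same arrays as the comparisons at each age.

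The difference at 6 weeks minus that at 5 weeks had a median of 0.91 over the type I-linked and 0.73 over the gamma-linked genes, all 36 above 0. In the test of genotype by age, 0 members were called, as were 0 of all 18193 genes (0.0%), with a smallest adjusted p of 0.697 in limma. Before adjustment 10 type I-linked genes had a p under 0.05, against 6.82% of all genes. Stat2 had the smallest of them (0.0065 in limma before adjustment), and its difference was 0.80 ± 0.22 (SE) higher at 6 than at 5 weeks. In the same comparison 11 of 11 macrophage markers lay above 0 (median 0.60, 36.4% at an unadjusted limma p under 0.05), as did 10 of 10 T lymphocyte (1.69) and 9 of 9 B lymphocyte markers (0.88). Their part in this value was not tested.

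Within RonTK+/+ glands the type I-linked genes were lower on average at 7 than at 5 weeks, with none passing the test. The 7-week minus 5-week value had a median of -0.41, with 27 of 28 genes below 0, and of -0.22 in the gamma-linked genes, all 8 below 0. It was -1.28 ± 0.40 (SE) in Irf7 and -0.79 ± 0.21 (SE) in Lgals3bp. Over the 3 ages limma called 0 of 36 members against 19 of 18193 genes (0.104%), and 6 type I-linked genes had an unadjusted p under 0.05, against 8.92% of all genes. The smallest adjusted p was 0.325, that of Lgals3bp in limma, and 0.0856 without RonTK-/- array 3 at 6 weeks, when 11 type I-linked genes had an unadjusted p under 0.05. Macrophage markers were also lower at 7 than at 5 weeks in RonTK+/+ glands, 11 of 11 with a median of -0.51, and 27.3% of them had an unadjusted p under 0.05 for age in limma. All 10 T and 9 B lymphocyte markers were lower too, with medians of -1.47 and -0.75, and all 10 luminal and 8 basal epithelial markers were higher, with medians of 0.58 and 0.78. The part of these cells in the members' values was not tested.

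In RonTK-/- glands the type I-linked genes had nearly the same average at 5 and 7 weeks, with a median change of -0.03 and 13 of 28 above 0, and the gamma-linked median was -0.19. Limma called 0 of 36 members for age against 7 of 18193 genes (0.0385%). Before adjustment 10 type I-linked and 3 gamma-linked genes had a p under 0.05, against 17.5% of all genes. Mx1 had the smallest, 0.0062, with an adjusted p of 0.204 in limma. Without RonTK-/- array 3 at 6 weeks 2 type I-linked genes had an unadjusted p under 0.05. T and B lymphocyte markers were lower at 7 than at 5 weeks here as well, with medians of -2.06 and -0.88, and macrophage markers had a median of 0.05.

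Other genes of the interferon pathway were listed by role, and 88 of them were measured. None was called in any comparison, and 3, 8, 12 and 4 of the 88 had an unadjusted p under 0.05 for genotype over the 3 ages and at 5, 6 and 7 weeks in limma. These were 3.41%, 9.09%, 13.6% and 4.55% of the 88, against 3.77%, 3.42%, 6.15% and 9.75% of all genes. Of 18 listed ligand genes 10 were measured, and single ones ranged over 0.33 to 0.76 between the lowest and the highest array. The mean of the 10 lay between -0.11 and 0.08 in all arrays and was 0.07 in RonTK-/- array 3 at 6 weeks. Ifng, the gamma ligand, was highest there (0.60), followed by RonTK+/+ array 2 at 6 weeks (0.46). Ifna1 had a difference of 0.17 ± 0.07 (SE) at 5 weeks and -0.16 ± 0.07 (SE) at 6 weeks, and Ifnab 0.18 ± 0.06 (SE) at 7 weeks, with adjusted p of 0.999, 0.791 and 0.403 in limma.

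Receptors and kinases (9 measured) had 1 gene at its highest in that array, Jak2, a kinase of the gamma receptor, at 0.33. Ifnlr1, the lambda receptor chain found on epithelium, had a difference of 0.39 ± 0.18 (SE) at 7 weeks, and Il10rb, its partner chain, -0.40 ± 0.18 (SE) at 5 weeks. Of 11 sensors and adaptors only Ddx58 (RIG-I) was highest in RonTK-/- array 3 at 6 weeks, at 0.57. Myd88, the adaptor of most Toll-like receptors, had a difference of 0.39 ± 0.16 (SE) at 6 weeks, Tlr7 -0.31 ± 0.13 (SE) at 5 weeks and Cgas, the cytosolic DNA sensor, -0.35 ± 0.16 (SE) at 7 weeks. The transcription factor Irf2, which shares the sites of Irf1, had 0.60 ± 0.19 (SE) at 6 weeks, and Stat3 had 0.21 ± 0.09 (SE) at 6 and 0.23 ± 0.09 (SE) at 7 weeks. Adjusted p for all of these lay at 0.513 or above in limma except for 0.502 in Ifnlr1 and 0.456 in Stat3 at 7 weeks.

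Socs3, an inhibitor of Jak kinases, did not follow the type I-linked genes. At 5 weeks Socs3 had -0.02, 0.83 and 0.30 in RonTK+/+ and 0.48, 0.16 and -0.11 in RonTK-/- arrays. At 6 weeks Socs3 had -0.07, -0.13 and -0.18 in RonTK+/+ and 0.25, 1.96 and 0.17 in RonTK-/- arrays. At 7 weeks Socs3 had 0.05, -0.22 and 0.68 in RonTK+/+ and 1.23, 1.39 and 0.44 in RonTK-/- arrays. The highest value was that of RonTK-/- array 2 at 6 weeks (1.96), while array 3 of that group was near the median of the 18. For Socs3 the difference was 0.53 ± 0.24 (SE) over the 3 ages and 0.92 ± 0.41 (SE) at 6 weeks, with adjusted p of 1 and 0.797 in limma. Socs1 was highest in RonTK-/- array 3 at 6 weeks, at 0.36.

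Further response genes outside the 38 behaved in part like the members. In RonTK-/- array 3 at 6 weeks 14 of 23 further type I and 8 of 21 further gamma response genes had their highest value. The means there were 0.58 and 0.56, and the next highest, both in RonTK+/+ array 2 at 5 weeks, were 0.30 and 0.36. Slfn8 was at 1.53 and Oas1a at 0.96 in that array, and Ifi27 and Ifi27l2a were at -0.05 and 0.10. Irgm2, an immunity-related GTPase of the gamma response, had -0.50, 0.00 and -0.20 in RonTK+/+ and -0.07, 0.60 and 1.09 in RonTK-/- arrays at 6 weeks. For Irgm2 the difference at 6 weeks was 0.77 ± 0.23 (SE), with a limma p of 0.00532 and an adjusted p of 0.774. The differences of Iigp1, a related GTPase, were -0.37 ± 0.17 (SE) at 5 weeks and 0.39 ± 0.17 (SE) at 6 weeks. Gm4951 and Tor3a were at -0.65 ± 0.26 (SE) and -0.33 ± 0.13 (SE) at 5 weeks, with adjusted p of 0.999 in limma for both.

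Genes outside these lists were ranked by Pearson's r with the type I-linked mean over the 18 arrays, as a description. The 10 highest were Daxx, Rnf213, Oas1b, Lgals9, H2-T24, Trim30d, Slfn4, Ifit1bl1, Ifi213 and Plac8, from 0.92 in Daxx to 0.78 in Plac8. All 10 had their highest value in RonTK-/- array 3 at 6 weeks, from 0.47 in Rnf213 to 2.46 in Ifit1bl1. The type I-linked mean used for the ranking is itself highest there, so this is in part built into the choice. Without that array r was 0.82 in Daxx and 0.57 in Ifi213. Within the 8 arrays low in lymphocyte markers r was 0.53 in Daxx, 0.97 in Slfn4 and 0.01 in Ifi213. The 5 genes most like the gamma-linked mean were Calhm6, Gimap5, Zup1, Akna and Atp8b4, with r between 0.96 and 0.97. As the arrays fall into sets by lymphocyte markers, r within the 10 arrays was 0.89, 0.82, 0.95, 0.86 and 0.89 in that order, and within the 8 arrays 0.83, 0.91, 0.63, 0.82 and 0.96.

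Of the 36 members 20 rested on 1 probe set, and in the 16 with several the probe sets differed in sign of the genotype difference in 2 at 5 weeks, 2 at 6 weeks, 6 at 7 weeks and 8 over the 3 ages. At 5 weeks those were Eif2ak2, from -0.17 to 0.01, and Tap1, from -0.29 to 0.05. Both Trim30a probe sets were close at 5 weeks, at -0.68 and -0.62, but lay at -0.67 and -0.16 at 7 weeks. Probe sets of 1 gene could also differ in size at 5 weeks, at -0.60 and -0.28 in Xaf1 and -0.58 and -0.11 in Rtp4. A probe set shared with Trim30d was left out, as was that of Isg15, which is shared with Gm9706.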

How the data were processed

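Per the labels' protocols, RNA was isolated from the whole gland with TriZol, with fat spun off first, then amplified once, biotin-labelled and read on Affymetrix mouse arrays. The deposited values are linear ratios, found from the values themselves. Over the 9 RonTK+/+ arrays, 87.37% of the 45101 probe sets had a median within 1e-04 of 1. No source used here gives the summary method, background correction or scaling. Ratios were taken to log2 with no pseudocount, because the lowest is 0.01. Signal over background is unknown, so dim probe sets could not be removed.

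Of the 45101 probe sets, 64 controls, 932 with several symbols and 9160 with none were left out. The other 34945 gave 18193 genes, each the mean of its probe sets, and 34741 matched a RefSeq table (GRCm38.p6), which changed 0 symbols. The 6 group means were fitted jointly over the 18 arrays in R 4.3.3 with limma 3.58.1 (12 residual and 1.94 prior degrees of freedom). Genotype was tested with limma's moderated t statistic, and age and genotype by age with its moderated F statistic. P-values are two-sided and carry Benjamini-Hochberg adjustment across the 18193 genes, with a call at an adjusted p under 0.05. Figures used Python 3.11.15 and matplotlib 3.10.9. The code was tested on simulated data.

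Values in every array are given for the 3 type I-linked and 2 gamma-linked members with the smallest p in each genotype comparison and for the 4 with the widest range. Of the other pathway genes, up to 3 per role with the smallest p are named. Members and lists were chosen with earlier results of these data known. The genes Ifit3, Ifih1, Zbp1, Oasl1, Oasl2, Oas1a, Jak2, Ddx58, Ifng, Socs1, Ifi27 and Ifi27l2a are outside that rule and were named after their values were seen. Alternatives covered scaling, array weights, probe set rules, the replicate number as a block, T lymphocyte markers as a covariate, the threshold, the arrays in the fit and leaving out each array.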

Additional observations from a re-analysis of the deposited data

How the results depend on the processing

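The count of called members was 0 in each of the 7 comparisons and in 193 of 194 alternatives. A count of 0 cannot fall, so this says nothing of how stable the differences were. The exception was age in RonTK-/- glands with limma's array weights, where 19 members were called (12 type I-linked and 7 gamma-linked). In that fit 5357 of all 18193 genes were called, against 7 without weights. The lowest weight was 0.31 (RonTK+/+ array 3 at 7 weeks) and the highest 4.22 (RonTK-/- array 1 at 5 weeks). The 22 single-gene differences named by rule had 522 alternative values, taken without the fits that hold the T lymphocyte covariate. Of these values 0 changed sign or passed the threshold. Many of them could not change sign, because a difference at 1 age does not depend on the arrays of other ages. Nor can the replicate block move a difference, as each group holds the same 3 numbers. The count of 0 therefore says little of how stable these differences were. At 5 weeks the type I-linked median was -0.69 after quantile normalization and -0.61 with array weights, and 13 and 21 of the 28 had an unadjusted p under 0.05, against 7. Over all 18193 genes the same fits gave 906 and 2119, against 623. Over the 3 ages the type I-linked split of 12 above and 16 below 0 became 3 and 25 after quantile normalization and 4 and 24 with array weights. Leaving out each array moved the type I-linked median between 0.09 and 0.70 at 6 weeks, and the gamma-linked median between -0.29 and 0.07 at 7 weeks. Within the 10 arrays rich in lymphocyte markers and within the 8 low in them, a division added after seeing the data, the genotype medians were -0.03 and -0.07 for type I-linked and -0.03 and -0.12 for gamma-linked genes, with 0 members called. With the replicate number as a block 0 members were called in each comparison. Arrays that share a number did not deviate together (correlations from -0.82 to 0.63, over 0.1 in 5 of 9 pairs, and 7 of 18 arrays were closest to their own number), so the numbers were not taken as pairs. The 3 arrays per group and the unknown signal over background limit what these ratios can resolve.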
